A study of Mus musculus with 2 samples.

Results

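The genes described here encode scaffold proteins of the postsynaptic density, the protein layer under the membrane of excitatory synapses. They were 9 of the 21853 protein-coding genes of GENCODE M21: Dlg1, Dlg2, Dlg4, Dlgap1, Dlgap2, Dlgap3, Shank1, Shank2 and Shank3, taken by name and not by any measured value. Open chromatin was measured by DNase-seq, in which DNase I cuts the DNA of isolated nuclei where nucleosomes do not cover it and the ends so made are read by sequencing. Nuclei came from hippocampus, which the labels call a layer of it without naming the layer, of male B6CASTF1/J mice (F1 offspring of the B6 and CAST strains) aged 2 months. There was 1 group with 2 samples, labelled biological replicates 1 and 2. Each has its own biosample entry, and both entries name 1 donor. No label says that they came from separate animals, so their spread may be partly technical. There was no second group, so every value below is a description without a test. The submitters deposited peaks (called open sites) and footprints (short stretches inside open chromatin that were cut less than their surroundings) for each replicate.

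In the postsynaptic density the proteins form a stack. The Dlg proteins bind the tails of glutamate receptors and their partners through PDZ domains, the Dlgap proteins bind the guanylate kinase-like domain of the Dlg proteins, and the Shank proteins bind the Dlgap proteins and reach down to Homer and the actin cytoskeleton. Several of these genes are long and are known for alternative promoters that give proteins with different first domains. A promoter was taken as 500 bp on either side of a start of a protein-coding transcript, with overlapping windows of a gene joined, and promoters are numbered in the direction of transcription. A shared site is the stretch covered by peaks of both replicates, and a promoter was called open where a shared site overlapped it. Heights are the highest deposited signal values over a site, given for replicate 1 and then for replicate 2. A promoter without a shared site may still be open in a small share of the cells.

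The sequences that carry the main results are shown first, read from the GRCm38 (mm10) reference assembly by the position of the deposited sites. The mice carried 1 CAST chromosome set, so their own bases may differ from the reference. Capitals mark bases inside a footprint of at least 1 replicate. Where a site ran into an untranslated exon, only the part outside it is shown. The first set holds the highest promoter site of 5 genes, and the single peak of Shank1 that replicate 1 alone had.
Dlg1 promoter 1, chr16:31663761-31663908, + strand: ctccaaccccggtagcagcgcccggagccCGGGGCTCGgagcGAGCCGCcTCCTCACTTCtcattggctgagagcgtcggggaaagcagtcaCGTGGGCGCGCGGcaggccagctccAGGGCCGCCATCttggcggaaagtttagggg
Dlg2 promoter 1, chr7:90476581-90476780, + strand: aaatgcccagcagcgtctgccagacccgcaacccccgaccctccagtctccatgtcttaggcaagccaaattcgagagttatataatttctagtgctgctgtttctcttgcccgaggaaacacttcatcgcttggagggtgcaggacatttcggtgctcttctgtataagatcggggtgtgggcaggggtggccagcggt
Dlgap3 promoter 1, chr4:127168501-127168740, + strand: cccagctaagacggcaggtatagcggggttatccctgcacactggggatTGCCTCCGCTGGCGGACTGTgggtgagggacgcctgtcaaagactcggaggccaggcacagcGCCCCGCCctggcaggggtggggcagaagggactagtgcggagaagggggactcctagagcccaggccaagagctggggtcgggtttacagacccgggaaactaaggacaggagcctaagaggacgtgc
Shank2 promoter 4, chr7:144284281-144284438, + strand: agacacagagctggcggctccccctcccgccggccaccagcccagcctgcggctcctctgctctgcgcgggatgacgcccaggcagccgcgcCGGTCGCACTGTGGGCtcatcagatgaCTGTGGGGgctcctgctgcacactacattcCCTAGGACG
Shank3 promoter 3, chr15:89532724-89532880, + strand: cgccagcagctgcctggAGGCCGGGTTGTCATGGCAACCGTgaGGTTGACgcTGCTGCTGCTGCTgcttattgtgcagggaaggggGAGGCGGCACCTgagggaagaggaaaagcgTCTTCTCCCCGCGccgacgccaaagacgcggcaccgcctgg
Shank1 promoter 1 (replicate 1), chr7:44310002-44310182, + strand: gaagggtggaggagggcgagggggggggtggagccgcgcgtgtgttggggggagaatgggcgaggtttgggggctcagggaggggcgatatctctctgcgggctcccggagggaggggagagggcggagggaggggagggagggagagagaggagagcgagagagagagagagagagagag

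The second set holds sites inside the genes whose mean height over both replicates was above that of the gene's highest promoter site. In replicate 2 the introns of Dlg4 and Dlgap1 stood above that promoter site. Those of Dlgap2 (1.28 against 1.41) and Dlgap3 (1.58 against 1.91) stood below it. The set also holds the stretches of Dlg4 and Shank2 with the letters GTTG and CAAC a few bases apart, which recur below.
Dlg4 intron, chr11:70021441-70021660, + strand: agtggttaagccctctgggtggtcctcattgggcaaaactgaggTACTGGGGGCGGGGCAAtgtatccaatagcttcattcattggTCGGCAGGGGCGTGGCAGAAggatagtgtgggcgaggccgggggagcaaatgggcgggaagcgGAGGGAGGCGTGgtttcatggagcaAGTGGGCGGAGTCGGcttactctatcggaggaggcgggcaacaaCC
Dlgap1 intron, chr17:70489001-70489200, + strand: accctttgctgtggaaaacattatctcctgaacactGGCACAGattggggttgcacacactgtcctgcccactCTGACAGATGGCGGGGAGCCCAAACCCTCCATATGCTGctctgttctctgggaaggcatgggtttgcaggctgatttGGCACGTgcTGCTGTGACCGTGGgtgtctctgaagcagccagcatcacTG
Dlgap2 intron, chr8:14447341-14447600, + strand: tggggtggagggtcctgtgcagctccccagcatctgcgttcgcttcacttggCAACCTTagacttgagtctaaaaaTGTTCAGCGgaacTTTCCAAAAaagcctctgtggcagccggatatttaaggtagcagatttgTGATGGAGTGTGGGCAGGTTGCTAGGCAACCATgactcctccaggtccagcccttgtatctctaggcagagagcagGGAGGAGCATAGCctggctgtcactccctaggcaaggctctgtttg
Dlgap3 intron, chr4:127235835-127235988, + strand: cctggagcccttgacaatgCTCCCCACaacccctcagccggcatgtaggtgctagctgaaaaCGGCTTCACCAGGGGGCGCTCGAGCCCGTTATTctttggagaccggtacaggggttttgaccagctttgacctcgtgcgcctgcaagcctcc
Dlg4 promoter 5, chr11:70029736-70029765, + strand: ttagatactGTTGCTAGGCAACCTGGtccc
Shank2 intron, chr7:144417720-144417749, + strand: agccccGCCGTTGCCTAGCAACATaatgat

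The replicates differed in how much was called in them. Replicate 1 held 132685 peaks with a median height of 0.663, and replicate 2 held 59880 with a median of 0.936. Replicate 1 held 255536 footprints and replicate 2 held 111355. There were 50780 shared sites. Heights in each replicate were whole multiples of a step, within 0.05 of a step, and the steps were 0.00535 and 0.0108. No source used here gives the depth, and reading a step as 1 read would be an inference. Promoters of cell type markers were checked against the labelled tissue. All 5 listed neuronal genes (Snap25, Syt1, Rbfox3, Map2, Tubb3) had an open promoter, and so did 3 of 4 genes of excitatory neurons. Open promoters were found for 1 of 2 genes of dentate granule cells, 1 of 3 of interneurons, 1 of 4 of astrocytes, 2 of 4 of oligodendrocytes, and 0 of 4 of microglia, 0 of 3 of endothelial cells and 0 of 5 of other tissues. In bulk tissue a low site in many cells and a high site in few cannot be told apart.

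Open promoters were found in 8 of the 9 scaffold genes, while over all protein-coding genes the share was 57.1%. Among the 2484 genes of at least 100 kb it was 81.9%, and the scaffold genes have a median length of 212 kb. Shank1 was the exception. Of the 31 promoters of the scaffold genes 14 were open (45.2%), against 41.4% of all promoters, so the promoters taken singly were near the background. In the shorter of the 2 lists deposited per replicate, 4 of 9 scaffold genes (44.4%, against 51.2% of all genes) and 7 of their 31 promoters (against 36.1%) were open, so both counts rest on the choice of list. The first and the later promoters are given apart. The first promoter was open in 6 of 9 scaffold genes, against 53.4% of all genes with several promoters. Later promoters were open in 8 of 22 (36.4%), against 15.7% of all later promoters. At least 2 promoters were open in 6 of the 9 scaffold genes, all of which have several promoters, against 11.7% of all genes with several. In the shorter lists at least 2 promoters were open in 3 of the 9 scaffold genes (against 6.9% of all genes with several), and at 50% reciprocal overlap of the replicates' peaks in 2 of 9 (against 6.32%). The later promoters open were then 4 of 22 under either setting, against 11.2% of all later promoters in the shorter lists and 11% at 50% reciprocal overlap. Among genes with 3 or more promoters it was, in the longer lists, 6 of 7 scaffold genes, against 24% of all such genes. The share is higher in long genes generally: 362 of the 1465 genes of at least 100 kb with several promoters had at least 2 open. Of the 761 genes of that length with 3 or more promoters, 276 had at least 2 open.

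**Figure D1:**
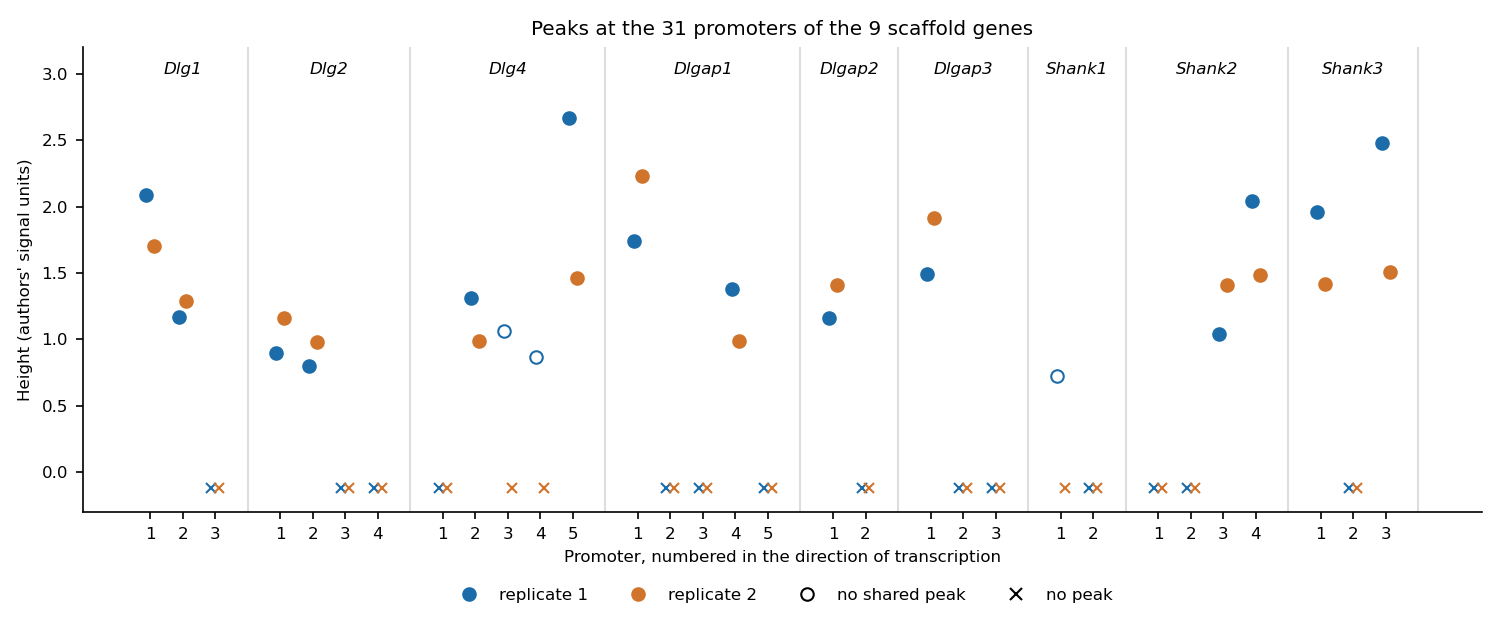
Height of the shared site at each of the 31 promoters (vertical axis, the authors' signal units), by gene and promoter number, in replicate 1 (blue) and replicate 2 (orange). Filled circles are open promoters, open circles are peaks of 1 replicate with no shared site, and crosses below 0 mark no peak; 14 promoters are open, all between 0.802 and 2.67 in replicate 1.

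The Dlg genes encode the membrane-nearest scaffolds, and each had 2 open promoters. Dlg1 (ENSMUSG00000022770, chr16:31663443-31875129, + strand) encodes SAP97, which also traffics receptors to the membrane. Promoter 1 of Dlg1 joins 5 starts of transcripts for proteins of 872 to 927 amino acids and had a site of 2.09 and 1.70, with its centre at -58 bp from the nearest start. Promoter 2, 90.9 kb downstream, starts a transcript for 834 amino acids and had a site of 1.17 and 1.29, with its centre 521 bp past the start at the edge of the window. Promoter 3, which starts a transcript for 357 amino acids, had no peak in either replicate. In the printed Dlg1 site, footprints of replicate 1 or 2 covered 51 of 148 bases, and the last of them runs into the letters of the YY1 motif AAGATGGC, read on the other strand.

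Dlg2 (ENSMUSG00000052572, chr7:90476672-92449247, + strand) encodes PSD-93, a close relative of PSD-95, and spans 1973 kb. Its 2 open promoters were the lowest among the scaffold genes in replicate 1. Promoter 1, for 957 amino acids, had 0.898 and 1.16 at a site centred at -550 bp from the start, which reached the window by its edge. This site spans the annotated start of the gene, which lies 0.009 kb from its centre. Of its 200 bases 109 lie in an exon, 0 of them annotated as untranslated. The annotated start of the gene is not a start of a protein-coding transcript, so it set no window here. No footprint of either replicate lay in promoter 1. The neighbouring promoter of Tmem126b, centred at -0.571 kb from the annotated start of Dlg2, was far higher at 8.62 and 4.91. Promoter 2 lies 614 kb into the gene and starts transcripts for 852 and 870 amino acids. It had 0.802 and 0.979 at its higher site and 0.743 and 0.624 at another, with 5 footprints in each replicate. Promoters 3 and 4, for 755 and 481 amino acids, had no peak in either replicate.

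Dlg4 (ENSMUSG00000020886, chr11:70016942-70047522, + strand) encodes PSD-95, the most abundant scaffold of the layer, and is the shortest of the scaffold genes at 30.6 kb. Promoter 1, for 764 and 767 amino acids, had no peak in either replicate. Promoter 2, a short way downstream, joins 5 starts for proteins of up to 724 amino acids and had 1.31 and 0.990. Promoter 5, 12.5 kb into the gene, joins 6 starts for proteins of up to 664 amino acids and had the highest promoter site of the scaffold genes in replicate 1, 2.67, with 1.46 in replicate 2. Promoters 3 and 4 had peaks of 1.06 and 0.866 in replicate 1 and none in replicate 2. The lowest false discovery rates the authors listed there in replicate 1 were 2.88e-04 and 1.2e-04, and replicate 2 had none listed below their ceiling of 0.05.

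Within Dlg4 the highest site was not at a promoter. The intronic site chr11:70021441-70021660, printed above, reached 7.19 and 3.36 with 5 and 4 footprints. It lies 2260 bp from the nearest protein-coding start, between promoters 2 and 3, and was singled out after its values were seen. It was 2.69 times as high as the site at promoter 5 in replicate 1 and 2.29 times in replicate 2. The 220 bases hold the Sp1 box GGGCGG and the CCAAT box, and footprints of at least 1 replicate cover 5 stretches of it.

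The Dlgap genes encode the middle layer. Dlgap1 (ENSMUSG00000003279, chr17:69969073-70821413, + strand) encodes GKAP (SAPAP1). Promoter 1 of Dlgap1, for 944 to 982 amino acids, had 1.74 and 2.23, the highest promoter value of the scaffold genes in replicate 2, and 9 and 10 footprints. Promoter 4, 553 kb downstream and for proteins of 660 to 692 amino acids, had 1.38 and 0.990. Promoters 2, 3 and 5 had no peak in either replicate. Dlgap2 (ENSMUSG00000047495, chr8:14095865-14847680, + strand) encodes SAPAP2. Its promoter 1, for 1059 and 1060 amino acids, had 1.16 and 1.41, and its promoter 2, 83.8 kb downstream, had no peak. Dlgap3 (ENSMUSG00000042388, chr4:127169204-127237022, + strand) encodes SAPAP3. Promoter 1 of Dlgap3 had 1.49 and 1.91 at a site whose centre lies at -583 bp from the start, so that it reached the window by its edge, and promoters 2 and 3 had no peak.

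The Shank genes encode the deepest layer. Shank1 (ENSMUSG00000038738, chr7:44310253-44360572, + strand) had no open promoter. At its promoter 1, for 2167 amino acids, replicate 1 had a peak of 0.727 with a lowest listed false discovery rate of 0.00777, and replicate 2 had no peak and no listed rate. Promoter 2 had no peak. With either replicate taken alone, a promoter peak was found in 9 of 9 scaffold genes in replicate 1 (63.4% of all genes) and in 8 of 9 in replicate 2 (58.5% of all genes).

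Shank2 (ENSMUSG00000037541, chr7:144001928-144424494, + strand) was open at its later promoters alone. Promoters 1 and 2, for 1841 and 816 amino acids, had no peak in either replicate. Promoter 3, 174 kb downstream and for 1472 amino acids, had 1.04 and 1.41. Promoter 4, 283 kb downstream and for 1255 and 1262 amino acids, had 2.04 and 1.48 at a site centred at -38 bp from the start. Shank3 (ENSMUSG00000022623, chr15:89499623-89560261, + strand) had 1.96 and 1.42 at promoter 1, for 1730 and 1805 amino acids. A higher site of 2.74 and 1.82 lay 703 bp before that start, outside the window. Promoter 3, 33.3 kb downstream, starts a transcript for 135 amino acids and had 2.48 and 1.51 at a site centred at -88 bp from the start, with 10 and 3 footprints. That transcript, the only one of promoter 3, is outside the basic set of GENCODE. With the basic set alone the highest promoter site of Shank3 was that of promoter 1, at 1.96 and 1.42. Promoter 2 of Shank3, for 382 amino acids, had no peak in either replicate although 74.7% of its bases are G or C.

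By the mean of both replicates the highest promoters ran in the order Dlg4 2.07 ± 0.852, Shank3 1.99 ± 0.686, Dlgap1 1.99 ± 0.342, Dlg1 1.89 ± 0.273, Shank2 1.76 ± 0.395 and Dlgap3 1.70 ± 0.299 (SD, n = 2 each). These 6 neighbours in the order differed by less than their SDs. Dlgap2 at 1.28 ± 0.176 and Dlg2 at 1.03 ± 0.186 were the lowest of the 8 in both replicates. The first place went to Dlg4 in replicate 1 and to Dlgap1 in replicate 2. Against all genes with an open promoter the scaffold genes were low. The median over the 8 was 1.89 and 1.50, against 4.05 and 2.46 over all such genes and 2.57 and 1.94 over those of at least 100 kb. All 8 lay below the median of all genes in both replicates. Their percentiles ran between 7.28 (Dlg2) and 31.9 (Dlg4) in replicate 1, and between 14.3 (Dlg2) and 43.0 (Dlgap1) in replicate 2.

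**Figure D2:**
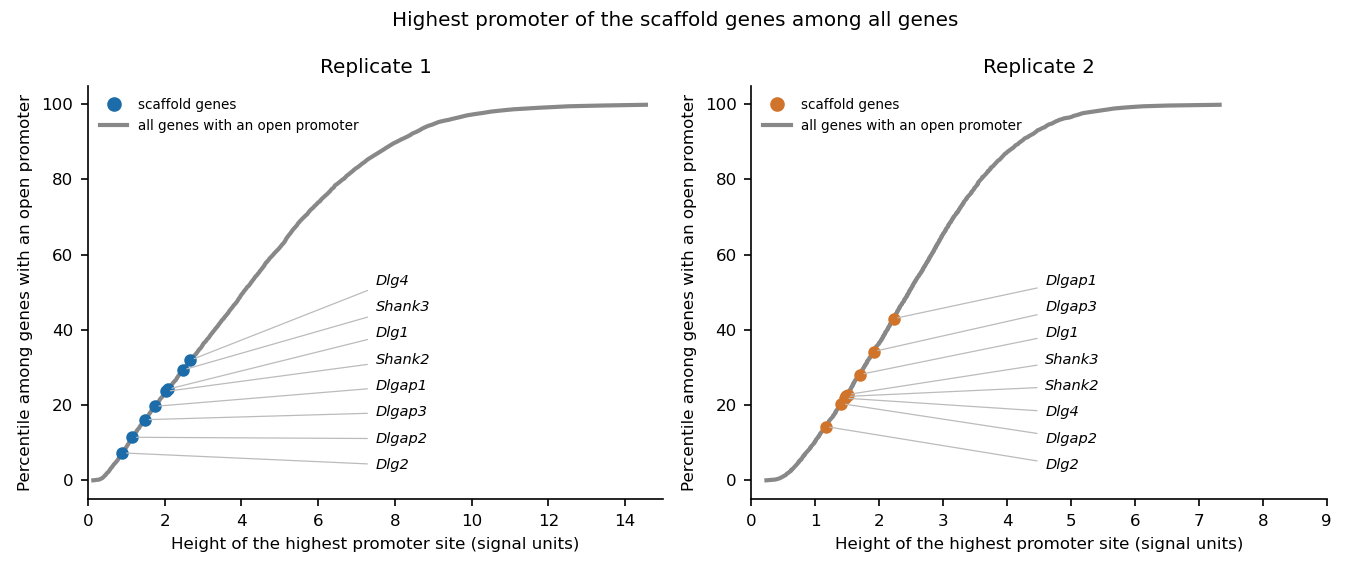
Percentile (vertical axis) against height (horizontal axis, the authors' signal units) of the highest promoter site of the scaffold genes (points) and of all genes with an open promoter (grey line, every 25 genes), for replicate 1 on the left and replicate 2 on the right. All 8 scaffold genes with an open promoter lie below percentile 50, from 7.28 to 31.9 in replicate 1 and from 14.3 to 43.0 in replicate 2.

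Base composition went with openness, though less than over all promoters. The 14 open promoters had a median of 57.9% G and C and a ratio of observed to expected CpG of 0.442, and the 17 others 52.3% and 0.321. Over all genes the open promoters had 59.2% and 0.734, and the others 46.7% and 0.215. Footprints of both replicates lay in 11 of the 31 promoters, against 39.5% of all promoters. Of the open ones it was 11 of 14 (78.6%), against 94.4% of all open promoters. Of the 17 promoters that were not open 14 had no peak in either replicate, and the other 3 had a peak in replicate 1.

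Sites in and around the genes were counted, both all of them and those far from any start. Within the gene body and 50 kb on either side lay 159 shared sites, of which 19 were at the genes' own promoters, 80 in introns, 8 touching an exon, 21 in the flanks and 31 at promoters of other genes. Over 2500 bp from every protein-coding start lay 90 of them, 75 within the gene bodies. The count depends on replicate 2, since 472 sites were counted from replicate 1 alone and 173 from replicate 2 alone, and 78 in the shorter lists. Per gene the median was 19 sites, against 5 over all genes and 7 over genes of at least 100 kb. For sites over 2500 bp from every start the median per gene was 5, against 1 and 4. Per 100 kb the median of all sites was 3.74, against 3.30 over all genes and 2.27 over genes of at least 100 kb. Dlg4 had 14.6 sites per 100 kb, at percentile 99.2 of all genes, but 11 of its 19 sites were at promoters of other genes. Shank1 had 7.98, Dlgap3 5.36, Shank2 4.21, Shank3 3.74, Dlgap2 2.70, Dlgap1 2.52, Dlg1 2.25 and Dlg2 1.79 sites per 100 kb. Among genes of at least 100 kb the Shank2 density was at percentile 87.4 and that of Dlg2 at percentile 37.1. Between them were Dlgap2 at 62.8, Dlgap1 at 58.5 and Dlg1 at 49.3.

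**Figure D3:**
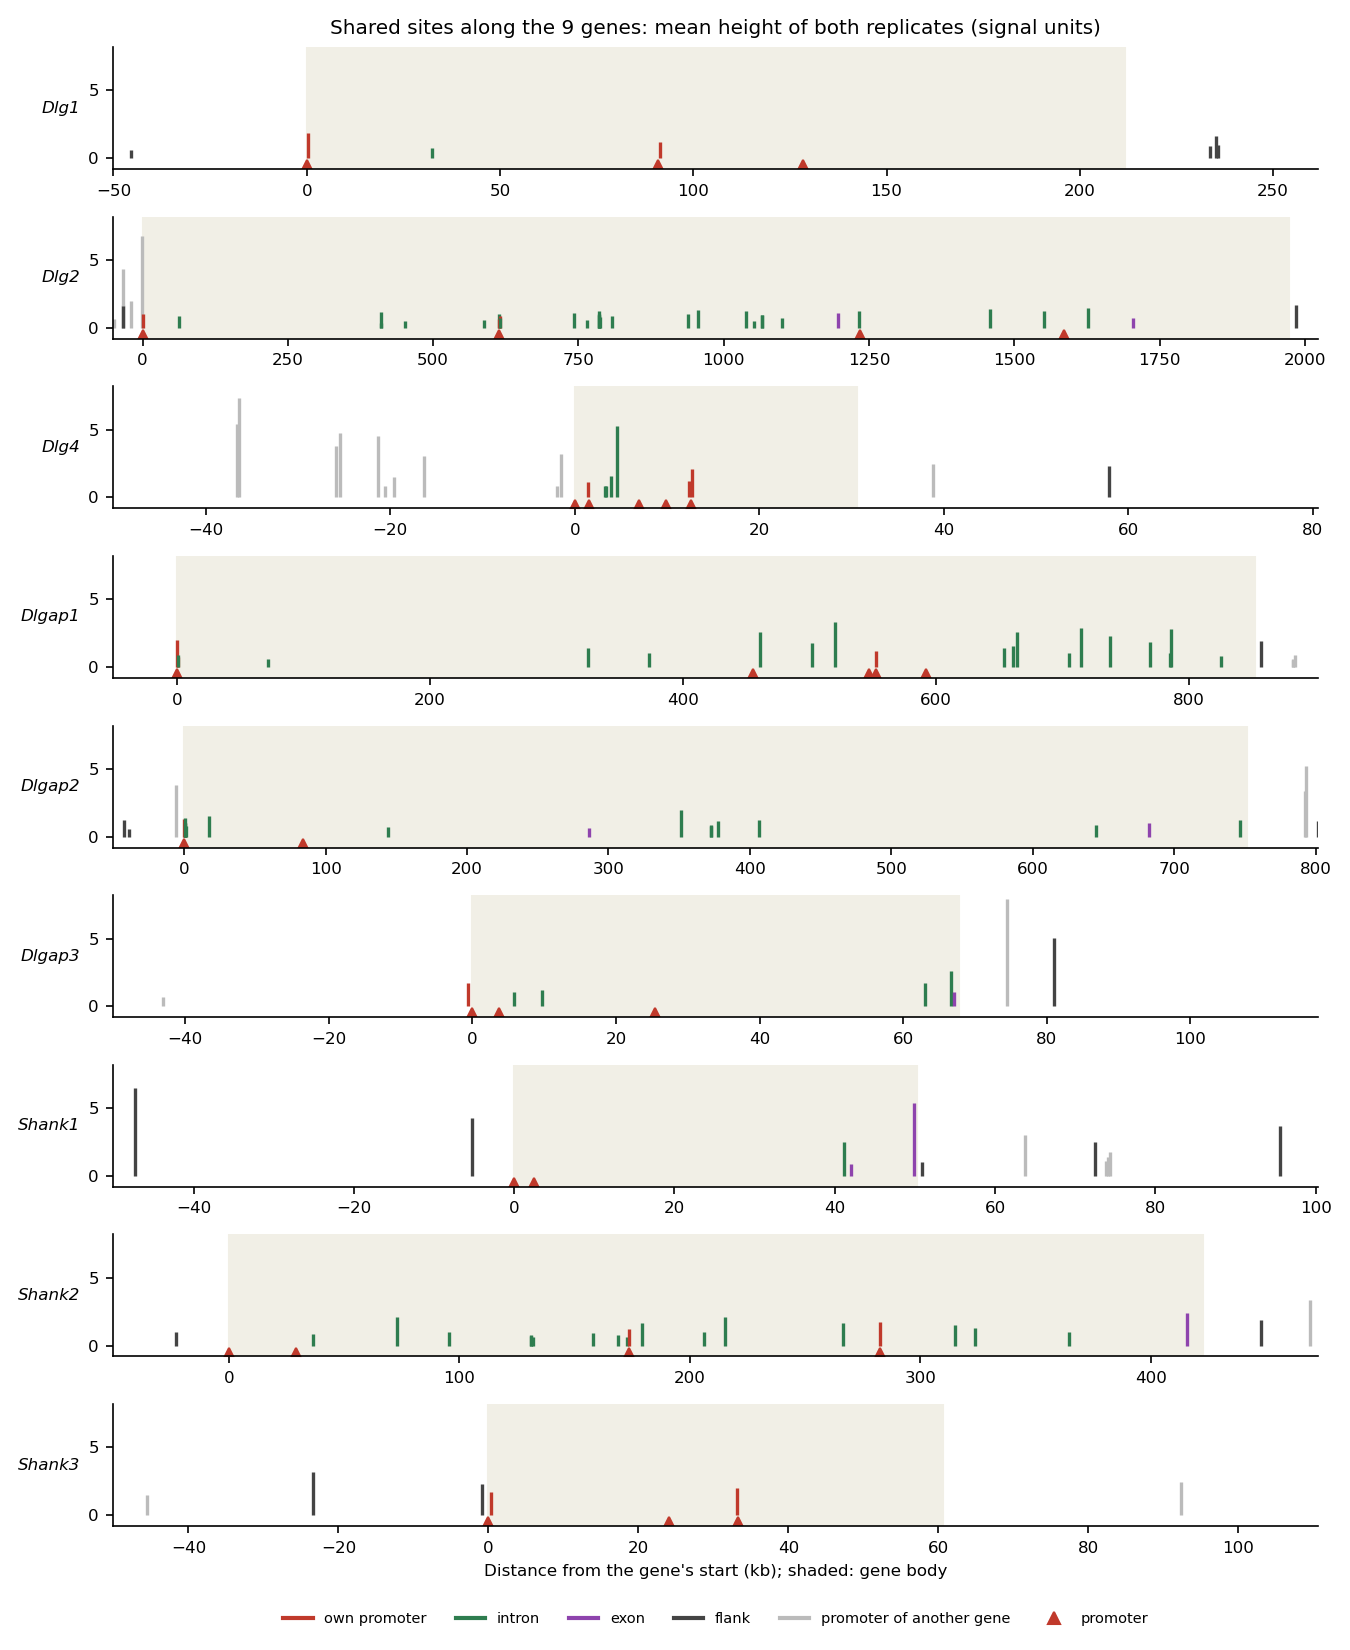
Shared sites along the 9 genes: distance from the annotated gene start in kb (horizontal axis, one scale per gene, gene body shaded, 50 kb on either side) and mean height of both replicates (vertical axis, the authors' signal units), coloured by where the site lies, with triangles at the promoters. The highest lines inside gene bodies are those of Shank1 at 49.9 kb and Dlg4 at 4.61 kb, and Dlg1 has a single line between its promoters.

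The sites were spread unevenly along the genes. With each gene body split into 4 equal stretches, 10 of the 16 distal sites in Dlgap1 lay in the last stretch, 3 in the one before, 2 in the next before that and 1 in the opening stretch. Dlg2 had 24 distal sites in its body, of which 4 lay between 785.5 and 786.6 kb from its start, while none lay between 62.97 and 409.9 kb. Shank2 had 16, with 7 in the second stretch and 3 in each of the others. All 3 of Shank1 lay in its last stretch. Dlg1 had 1 over its 212 kb, and Dlg4 and Shank3 had none by this definition. Neighbouring shared sites could rest on 1 wide peak of a replicate, as 3 sites at the start of Dlgap2 rested on 1 peak of 0.620 in replicate 1.

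The distal site of each gene body with the highest mean over both replicates is given next. In Shank1 it was chr7:44360081-44360300, at 7.12 and 3.70 with 5 and 3 footprints, inside an exon 49.9 kb from the start of the gene and also inside 1700008O03Rik. It was higher than any promoter site of the scaffold genes, in the 1 gene of the 9 that had no open promoter. In Dlgap1 it was chr17:70489001-70489200, at 3.17 and 3.50 with 3 and 4 footprints, 520 kb from the start. This was the 1 of the 5 highest distal sites by the mean that was higher in replicate 2. In replicate 1 alone chr17:70633601-70633760 was the highest of Dlgap1, at 4.04, with 1.12 in replicate 2. The next by the mean in Dlgap1 were chr17:70683901-70684060 at 3.90 and 1.81 and chr17:70755041-70755220 at 3.70 and 1.97. All 4 were higher than the Dlgap1 promoters in replicate 1. In replicate 2, where promoter 1 of Dlgap1 stood at 2.23, chr17:70489001-70489200 alone of the 4 was higher.

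In Dlgap3 this site was chr4:127235835-127235988, at 3.68 and 1.58, 66.7 kb from the start near the end of the gene. A footprint in its printed sequence covers the letters CACNAGGGG, a core of the motif of CTCF, a protein that bounds chromatin loops; this motif was added after the sequence was seen. Within the 200 bp around each site's centre, the motif was found at 4 of 90 distal sites of the scaffold genes (4.44%) and at 4.35% of all distal sites. In Shank2 it was chr7:144417661-144417840 at 3.24 and 1.59, of which 16 of 180 bases lie in an exon and the rest in an intron. In Dlgap2 it was chr8:14447341-14447600 at 2.61 and 1.28, and in Dlg2 chr7:92103029-92103109 at 2.12 and 0.775. In replicate 2 alone other distal sites in Dlg2 were higher, up to 1.50 at chr7:91262041-91262380. The single distal site in the body of Dlg1, chr16:31695666-31695857, had 0.765 and 0.678.

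A pair of letters recurred in these sequences. GTTG followed after 5 or 6 bases by CAAC is an inverted repeat of the kind that RFX proteins are known to bind. It was searched after being seen in the printed sites, so its share among the scaffold genes is a description of how it was found. It stood in 6 of the 159 sites (3.77%) and in 348 of all 50780 shared sites (0.685%). The 6 were promoter 5 of Dlg4, promoter 3 of Shank3, the site 703 bp before the first start of Shank3, the Dlgap2 intron, the Shank2 intron next to an exon, and a site in the flank of Shank1 at chr7:44405641-44406080. Footprints of both replicates overlapped 5 of the 6 pairs (83.3%), and 28.5% of the 351 pairs in all shared sites. The exception was the site before Shank3, where replicate 1 alone had a footprint. The footprint share has the same limit, since the pair was first seen in printed sites with footprint bases in capitals. It is no measure of binding. The pair in promoter 3 of Shank3 overlaps a match of the longer RFX motif GTTGCCATG, read on the other strand. In the flank of Shank1 the pair and a match of GTTGCCATG were found at the same footprint in each replicate. Within the 200 bp around each site's centre, GTTGCCATG was in 1 of 19 promoter sites (5.26%), against 0.663% of all promoter sites. It was in 2 of 90 distal sites (2.22%), against 1.35% of all distal sites.

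Shares of other motifs are given beside those of all sites. They were matched exactly on both strands in the 200 bp around the centre of each site, which reach past the edges of narrower sites. The Sp1 box GGGCGG was in 7 of 19 promoter sites (36.8%), against 56.8% of all promoter sites, and in 14 of 90 distal sites (15.6%), against 10.4%. The CCAAT box was in 3 of 19 promoter sites (15.8%), against 26.5%, and the ETS motif CCGGAAG in 1 of 19 (5.26%), against 12.5%. The E-box CAGATG, which NeuroD factors of neurons bind, was in 3 of 19 promoter sites (15.8%), against 7.12%, and in 24 of 90 distal sites (26.7%), against 29.2% of all distal sites. The NFI motif TTGGCA was in 17 of 90 (18.9%), against 20.1%. CTCF letters CCACNAGGG were in 4 of 90 (4.44%), against 4.03%. The AP-1 motif TGANTCA, bound by Fos and Jun, was in 6 of 90 (6.67%), against 7.89%. The EGR motif GCGTGGGCG was in 3 of 31 windows of 500 bp on either side of a promoter's first start (9.68%), against 1.54% of all such windows, and in none of the 19 promoter sites.

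The agreement of the replicates' peaks at the scaffold genes is given beside that over all peaks. Of 476 peaks of replicate 1 in and around these genes, 155 were met by a peak of replicate 2, which is 32.6% (95% Wilson interval 28.5 to 36.9), against 38.0% of all its peaks. Of 181 peaks of replicate 2, 158 were met by one of replicate 1, which is 87.3% (81.7 to 91.4), against 81.8% of all. These intervals cover counting error only and treat the peaks as independent, although they cluster in few genes and come from 2 libraries. Shares by gene spread far more widely than the first interval, and no difference from all peaks was tested. By gene the first share was lowest at Dlgap2, where replicate 1 had 106 peaks and replicate 2 had 24 (19.8%), and highest at Dlg4 (79.2%). Of footprints, 16.5% of those of replicate 1 and 46.4% of those of replicate 2 overlapped one of the other replicate, against 18.4% and 45.8% of all.

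Heights of the 159 sites ran together between the replicates, with Pearson's r of 0.82 on the log10 scale and Spearman's rho of 0.76. The points share 2 libraries and are not independent, so this is a description across sites. Set as log2 of replicate 2 over replicate 1, their median was -0.40, against -0.48 over all shared sites. The 19 promoter sites stood at +0.28, with 11 higher and 8 lower in replicate 2, while the 90 distal sites stood at -0.43, with 26 higher and 64 lower. All promoter sites stood at -0.46, but those no higher in replicate 1 than the highest of the scaffold genes (2.67) stood at +0.11 (n = 8891). Of these 8891 sites 56.4% were higher in replicate 2, near the 57.9% of the 19 promoter sites of the scaffold genes. All distal sites stood at -0.55.

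**Figure D4:**
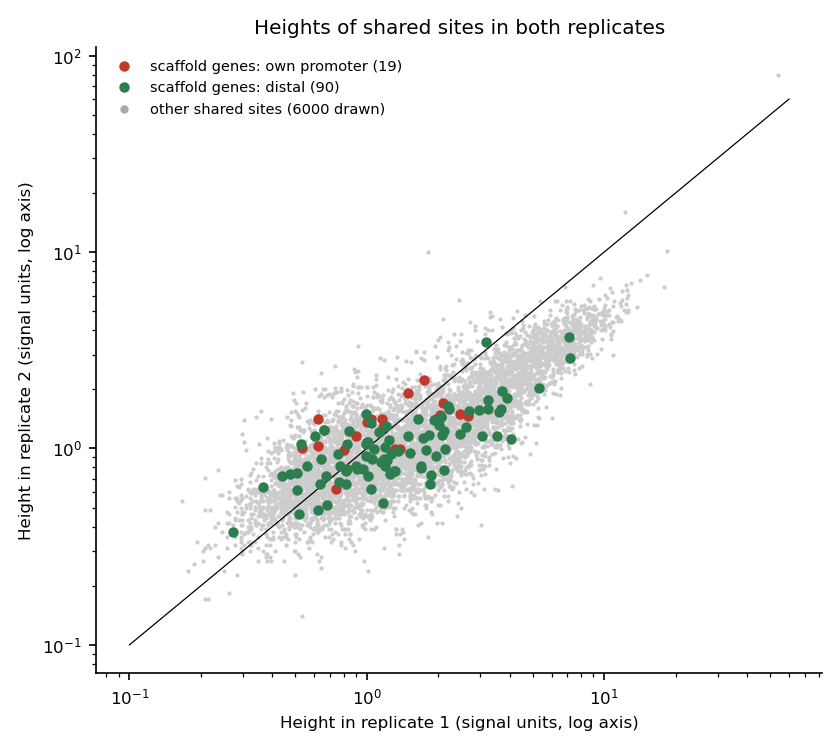
Height of shared sites in replicate 1 (horizontal axis) and replicate 2 (vertical axis), both in the authors' signal units on log axes; red points are the 19 promoter sites of the scaffold genes, green points their 90 distal sites, grey points 6000 shared sites drawn at random, and the line marks equal heights. Of the red points 11 lie above the line and 8 below, and of the green points 26 lie above and 64 below. Of all promoter sites up to 2.67 in replicate 1, 56.4% were higher in replicate 2.

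Genes of related function were set beside the scaffold genes. The other proteins of the excitatory postsynaptic density (31 genes, among them receptor subunits, Homer proteins and kinases) had an open promoter in 29 (93.5%), with a median height of 2.78 and 1.88. The highest were Homer1, a partner of the Shank proteins, at 7.70 and 4.73, and Baiap2 at 8.27 and 3.39. Homer2 and Iqsec2 had a peak in replicate 1 and no shared site. Presynaptic active zone scaffolds were open in 11 of 11 at a median of 3.19 and 2.13, with Ppfia3 at 8.79 and 5.07 and Unc13a at 4.87 and 3.52. Genes of the inhibitory postsynapse were open in 10 of 10 at 2.66 and 2.06, with Nlgn2 at 5.49 and 3.92 and Gphn, the scaffold gephyrin, at 4.43 and 2.95. Other scaffolds of related domain structure were open in 10 of 10 at 3.50 and 1.86, with Magi3 at 6.87 and 2.95 and Magi1 at 5.53 and 3.11. The scaffold genes thus had the lowest median height of these lists in both replicates. This does not extend to their families, since Dlg3 and Dlgap4 were counted with the other excitatory genes. Dlgap4 stood at 5.68 and 3.56, above every scaffold gene in both replicates, and Dlg3 at 1.64 and 0.893. At least 2 promoters were open in 6 of 9 scaffold genes, in 8 of 20 of the other excitatory genes with several promoters, 4 of 10 presynaptic, 1 of 6 inhibitory and 6 of 9 related scaffolds.

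**Figure D5:**
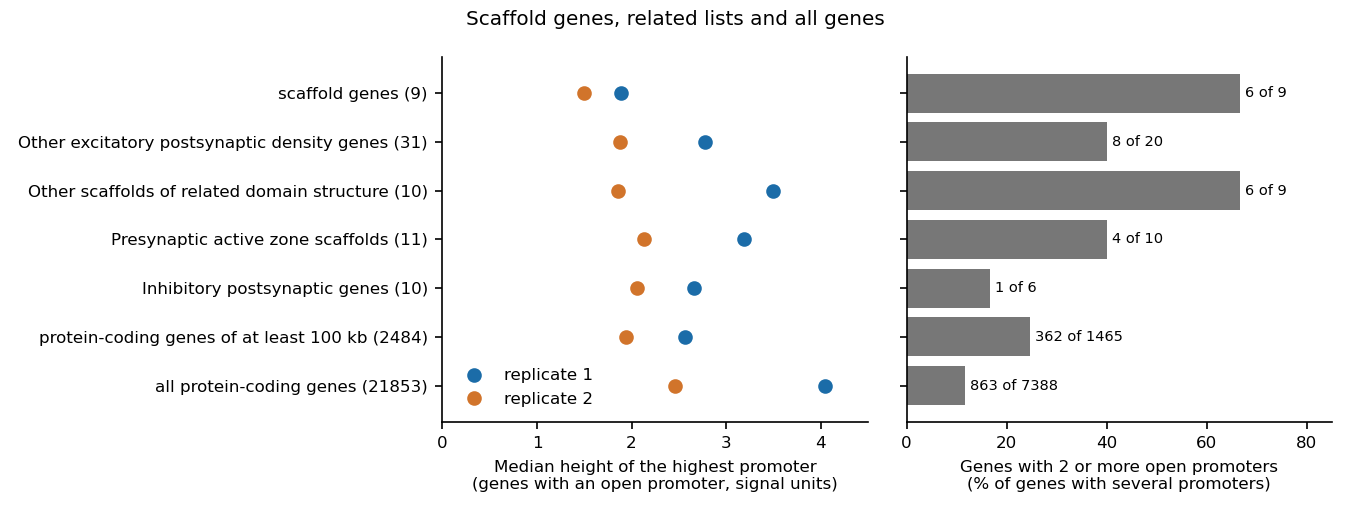
Left, median height of the highest promoter site (the authors' signal units) over genes with an open promoter, in replicate 1 (blue) and replicate 2 (orange); right, percent of genes with several promoters that had at least 2 open. The scaffold genes in the top row have the lowest medians, 1.89 and 1.50, and share 6 of 9 with the related scaffolds.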

How the data were processed

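DNase-seq peaks, footprints and false discovery rates (FDR) were deposited for each replicate, with mm10 as the assembly per the labels. No source used here names the aligner, the callers or their thresholds. Peak heights are signal values as deposited by the authors, and the longer of 2 peak lists per replicate was used. The FDR per interval was read as the q-value the authors deposited. Footprints carried the constant 0.01 and were used by position. Shared sites were intersections of peaks of both replicates (overlap of at least 1 bp), merged where they overlapped. Genes and starts came from GENCODE M21 on GRCm38. On all 21 chromosomes the last peak lay within the reference length. Python 3.11.15, numpy 2.4.6, scipy 1.17.1 and pysam 0.24.0 were used, and the interval functions were tested on simulated data. With 1 group, no test was made. Named were all 9 genes with every promoter, the highest distal site of each gene body and the 5 highest of all these, and of each related list the 2 highest and up to 3 genes not open. Dlg3 and Dlgap4 were named besides, as members of the same families. The genes, lists and motifs were chosen with earlier results of these data known.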

Additional observations from a re-analysis of the deposited data

How the results depend on the processing

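The count of 8 scaffold genes with an open promoter fell to 4 (Dlg1, Dlg2, Dlgap1, Shank2) in the shorter peak lists, against 51.2% of all genes, and ranged from 8 to 9 with either replicate left out. It was 6 at 50% reciprocal overlap, without Dlgap2 and Shank2, against 43.8% of all genes. With windows of 200 bp it was 6, without Dlg2 and Dlgap3, against 54.7%. The 14 open promoters became 7 in the shorter lists, 8 at 50% reciprocal overlap (31% of all promoters) and 9 with windows of 200 bp (38%). With transcripts of the basic set of GENCODE alone, 13 promoters were open, and promoter 3 of Shank3 dropped out. The 159 sites became 78 in the shorter lists, 92 at 50% reciprocal overlap, 100 in the top 50% of each list and 486 with a peak in at least 1 replicate, and ranged from 173 to 472 with a replicate left out. The 90 distal sites became 35, 59, 49 and 386 under the same settings, and ranged from 100 to 376. Over the genome the 50780 shared sites became 28147 in the shorter lists, 32100 at 50% reciprocal overlap and 28982 in the top 50% of each list. Of replicate 1 peaks, the share met in replicate 2 was 27.8% in the shorter lists, 19.3% at 50% reciprocal overlap, 40.8% in the top 50% and 60.5% in lists of equal length. The reverse share was 51.4% at 50% reciprocal overlap, 91.8% in the top 50% and 73.5% in lists of equal length. These 4 settings for the shares were chosen after seeing the data. The shares over all peaks were not counted under them, so these values have no background beside them. Of the promoters with a footprint in both replicates, 11 in all, 10 to 14 were found under the alternatives tried. At least 2 open promoters, in 6 genes as reported, became 3 in the shorter lists, 2 at 50% reciprocal overlap and 3 with windows of 200 bp, and stayed at 6 with either replicate left out. With the basic set it was 5 genes. The share over all genes was not counted for windows of 200 bp or for the basic set. The 8 later promoters open became 4 in the shorter lists, 4 at 50% reciprocal overlap and 7 with the basic set, and ranged from 8 to 10 with a replicate left out. These settings for both counts were also chosen after seeing the data. With windows of 2000 bp, which take in sites of other genes, the highest site in replicate 1 became 8.62 at Dlg2 and 3.95 at Dlg4. The other settings mostly return the same site and so say nothing of the stability of a gene's height, and in 6 cases the promoter was not open. Sites per 100 kb moved by more than the SD in 22 of 63 values, 18 of them upward. This SD was taken from the densities of each replicate alone, which are also among the settings, so the count says little of stability. All 18 upward moves came with replicate 2 left out or with a peak in at least 1 replicate. Both settings count the unshared peaks of replicate 1, so these moves follow from how the settings are defined. The cause of the 4 downward moves was not tested. No paired analysis was possible because there is 1 group. The depth is not known, so whether sites found in replicate 1 alone are missing from replicate 2 for that reason was not tested.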

Other observations

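The neighbours of the scaffold genes carried several of the highest sites counted with them. Within 50 kb of Dlg4 lay the promoters of Elp5 and Ctdnep1 (8.63 and 6.07 in replicates 1 and 2), Gabarap (6.45 and 3.11), Phf23 (5.67 and 3.35), Dvl2 (3.50 and 2.58) and Acadvl (3.95 and 2.40), all higher than the promoters of Dlg4 itself in both replicates. Upstream of Shank1 a site of 8.39 and 4.53 lay 1414 bp from a start of Gm15517. At Dlgap2 the bordering promoters were those of Erich1 (5.56 and 2.14) and Cln8 (6.33 and 4.11).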
